A study of Homo sapiens and Mus musculus with 12 samples.

Results

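The suppressors of cytokine signaling (SOCS) were followed in breast cancer cells exposed to the kinase inhibitor ponatinib. The family has 8 members, *CISH* and *SOCS1* to *SOCS7*, and each was looked up by its symbol among the counted gene identifiers, in human as written and in mouse with the first letter in capitals. All 8 genes were found in the mouse data, among 47729 identifiers, and 7 in the human data, among 63677 identifiers, where *SOCS7* was not analysed here. Every member that was found passed the filter on low counts. RNA sequencing had been done on MDA-MB-231, a triple-negative breast cancer line and the human line here, and 4T1, the mouse line, a mammary carcinoma, both labelled wild type. Each line received 1 μmol/L ponatinib, a multi-kinase inhibitor developed against BCR-ABL, or its solvent DMSO for 24 h in culture. There were 4 groups of 3 libraries, 12 in all, and nothing in the sources says whether the 3 libraries of a group came from separate cultures, so p-values measure the spread between libraries, which may be technical. The comparison asks how the genes of JAK-STAT feedback responded to the drug.

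SOCS proteins are the classical brake on cytokine signaling. A cytokine receptor activates JAK kinases, these phosphorylate STAT transcription factors, and the STATs switch on genes that include *CISH*, *SOCS1*, *SOCS2* and *SOCS3*. Each SOCS protein holds an SH2 domain, which binds phosphotyrosine on receptors or kinases, and a SOCS box, which recruits elongins and cullin 5 so that the bound protein is ubiquitinated. SOCS1 and SOCS3 also block JAK activity directly. SOCS4 to SOCS7 are less tied to cytokines and are better known for acting on growth factor and insulin receptor signaling.

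The libraries held 15012884 to 17301760 counts in the human line and 17800675 to 18951493 in 4T1. Levels are given as CPM, counts of a gene scaled to the size of its library, computed with totals scaled by the trimmed mean of M-values (TMM), so they are relative to the other RNA of the same library. In this bulk RNA, a change in the share of cells that express a gene and a change in RNA per cell cannot be told apart. In every group the library numbered 1 lay farther from the other 2 than those did from each other, with a chi-square per gene of 8.16 to 14.7 against 2.86 to 6.61. Of 8 epithelial markers, 6 were over 1 CPM on average in the human line and 7 in 4T1. Both lines are labelled epithelial, yet *KRT5* was below that level in either line and *CDH1* in the human line. The epithelial markers summed to 2035 to 2481 CPM with DMSO and to 2986 to 3788 with ponatinib in the human line, and to 7898 to 9095 and 8037 to 8852 in 4T1. The 4 mesenchymal markers summed to 1342 to 1528 and 947 to 1124 CPM in the human line, and to 6429 to 7370 and 4401 to 4823 in 4T1. They did not move as 1 set. In the human line *VIM* fell from 1288 to 817 CPM, *ZEB1* also fell, and *FN1* rose from 123 to 207. In 4T1 *Fn1* fell from 3414 to 970 CPM and *Zeb1* also fell, while *Vim*, at 3257 and 3605, was not called. Of the 8 leukocyte markers, 5 were at 0 in every 4T1 library and only *Cd14* was over 1 CPM there. In the human line 2 of the 8 were at 0 in every library, *PTPRC* among them, and 3 were over 1 CPM on average. These were *CD8A* (3.77 CPM with DMSO, 7.09 with ponatinib), *CD14* (2.09 and 2.12) and *CSF1R* (0.735 and 1.80). *CD8A* and *CSF1R* were called higher with ponatinib. The summed leukocyte markers ranged from 6.23 to 7.03 CPM with DMSO and from 9.53 to 12.2 CPM with ponatinib in the human line, and from 223 to 249 and from 137 to 155 CPM in 4T1. The 4 endothelial markers summed to 10.9 to 11.8 and 6.25 to 8.05 CPM in the human line, and to 2.89 to 5.03 and 0.868 to 1.45 CPM in 4T1. The part of these markers in the results below was not tested.

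Some of the members carry a STAT-binding pattern, TTCNNNGAA, known as a GAS element, close to their start, and these windows are shown because STAT control is what ties the family to cytokines. The window ran from 250 bases before to 50 bases after the start, and the pattern reads the same on both strands. Human windows came from RefSeq (GRCh38.p14), which had entries for *CISH*, *SOCS1*, *SOCS3*, *SOCS4* and *SOCS6*, and mouse windows were read from GRCm39 at the start of the canonical GENCODE vM39 transcript. For *Socs2*, *Socs3*, *Socs5* and *Socs6* that start lies inside the outer bounds of the gene given below, which take in other transcripts. Human *SOCS3* had 2 RefSeq windows, chr17:78360876-78361175 and chr17:78359618-78359917 (minus strand). The first lies outside the bounds given below and the second inside, so the bases just before those bounds were not searched. In the *CISH* window (chr3:50611725-50612024, minus strand) the pattern occurred 4 times, beginning at -241, -230, -129 and -112 from the start. In the mouse *Socs3* window (chr11:117860074-117860373, minus strand) it occurred at -223, and in the mouse *Socs1* window (chr16:10603826-10604125, minus strand) at 22 bases after the start. Among all windows of this length, 7.66% of 35116 human and 8.81% of 21770 mouse windows held the pattern, and 0.456% and 0.455% held more than 1. Capitals mark the pattern in the sequences, which are written 5′ to 3′ on the strand of the gene.
CISH, human: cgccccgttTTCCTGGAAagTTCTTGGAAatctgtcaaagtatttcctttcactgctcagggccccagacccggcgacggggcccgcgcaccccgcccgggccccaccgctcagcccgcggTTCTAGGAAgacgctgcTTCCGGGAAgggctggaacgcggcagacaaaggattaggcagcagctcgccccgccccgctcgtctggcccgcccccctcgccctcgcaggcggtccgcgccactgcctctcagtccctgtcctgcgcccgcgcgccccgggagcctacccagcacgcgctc
Socs3, mouse: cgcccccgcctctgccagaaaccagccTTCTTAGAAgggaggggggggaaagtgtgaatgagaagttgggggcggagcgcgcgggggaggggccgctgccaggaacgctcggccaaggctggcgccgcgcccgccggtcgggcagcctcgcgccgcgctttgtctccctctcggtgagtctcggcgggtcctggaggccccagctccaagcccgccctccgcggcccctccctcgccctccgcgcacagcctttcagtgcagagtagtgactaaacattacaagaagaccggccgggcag
Socs1, mouse: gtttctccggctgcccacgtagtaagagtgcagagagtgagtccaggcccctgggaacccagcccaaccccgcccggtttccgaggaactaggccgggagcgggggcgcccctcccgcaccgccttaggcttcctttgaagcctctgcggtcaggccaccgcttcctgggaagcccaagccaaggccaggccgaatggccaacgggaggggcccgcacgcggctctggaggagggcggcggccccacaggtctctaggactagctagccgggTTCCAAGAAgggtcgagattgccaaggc
The other human and mouse windows searched held no match, which says only that these letters were not in those bases.

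In 4T1 cells 7 of the 8 members were lower with ponatinib and none was higher, at an adjusted p under 0.05 by the quasi-likelihood test of edgeR, with p-values adjusted by Benjamini-Hochberg over 13286 genes. Of all genes tested in that line, 29.4% were lower and 29.5% higher. The same 7 members had every ponatinib library below every DMSO library, which held for 30.8% of all genes, while 32.6% of all genes had every ponatinib library above. In the human line 2 of 7 members were lower and 1 was higher, where 26.8% of 14610 genes were lower and 27.2% higher, so the count of falls there was close to that of genes at large. With the replicate number as a block, 4 members were lower in that line, against 33.4% of all genes. There, 4 of 7 members had every ponatinib library below every DMSO library and 1 had every one above, against 29.8% and 30.6% of all genes. The median log2 fold change of the members was -0.71 in 4T1 and -0.25 in the human line. Over all genes it was -0.00014 and 0.015. Scaling by total counts moved the median of all genes to 0.12 in 4T1 and 0.11 in the human line, with 22.1% lower and 36.5% higher in 4T1 and 21.2% lower and 31.8% higher in the human line. The calls of the members were the same under it.

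**Figure D1:**
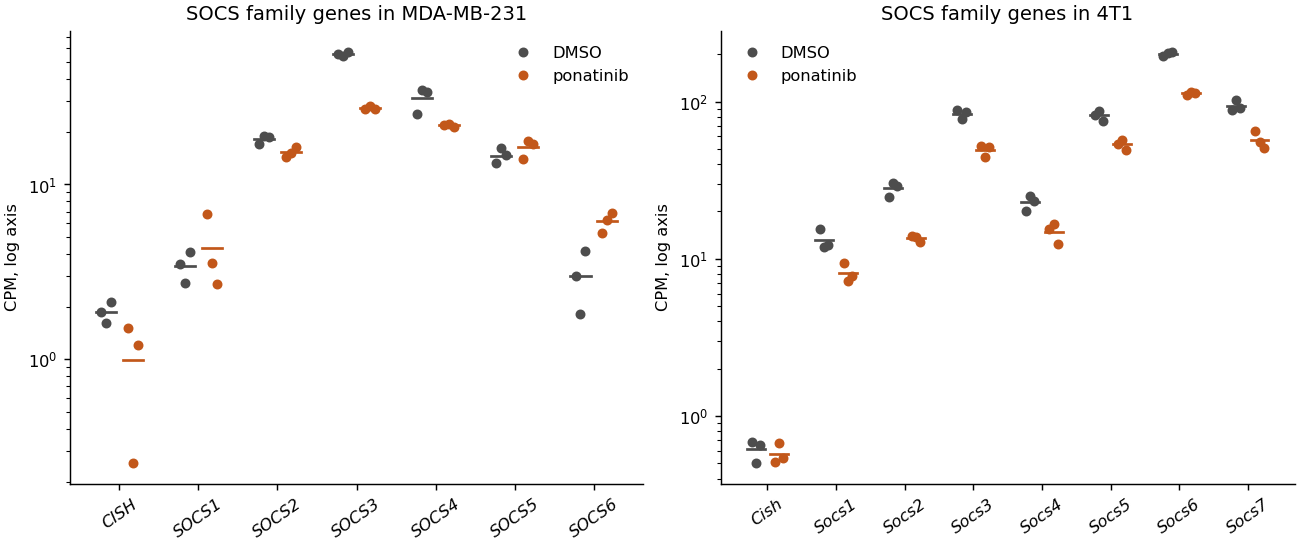
Level of each SOCS family gene in each library, in CPM on a log axis, with DMSO libraries in grey and ponatinib libraries in orange and a bar at the mean of 3 libraries. In 4T1 the ponatinib points lie below the DMSO points for all members except *Cish*, and in MDA-MB-231 *SOCS6* is the member whose ponatinib points lie above.

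*SOCS3*, the inhibitor that dampens signaling from the IL-6 receptor subunit gp130, fell in both lines. In MDA-MB-231 (ENSG00000184557, hg38 chr17:78356778-78360077, minus strand) it was at 55.8, 53.9 and 57.3 CPM with DMSO and 27.0, 28.0 and 27.2 CPM with ponatinib. In 4T1 (ENSMUSG00000053113, GRCm39 chr11:117856905-117860898, minus strand) it was at 87.8, 77.7 and 86.0 CPM with DMSO and 52.3, 44.3 and 51.1 CPM with ponatinib. The groups were far apart and did not overlap in either line. The level with ponatinib was 49.2% of the DMSO level in the human line (log2 fold change -1.02, SE 0.08, adjusted p = 1.37e-06 in edgeR) and 58.8% in 4T1 (log2 fold change -0.77, SE 0.09, adjusted p = 3.59e-06). The responses of the lines differed by 0.18 on the log2 scale (95% interval -0.07 to 0.44, adjusted p = 0.249 for the interaction in edgeR), which did not pass the test. Line differences here come from a joint fit of both lines, scaled over genes with a shared symbol. They therefore need not equal the fold changes of the lines subtracted.

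*SOCS4*, linked to EGF receptor turnover, also fell in both lines. In MDA-MB-231 (ENSG00000180008, hg38 chr14:55027230-55049489, plus strand) its values were 25.4, 34.5 and 34.0 CPM with DMSO and 21.8, 22.2 and 21.4 CPM with ponatinib. In 4T1 (ENSMUSG00000048379, GRCm39 chr14:47514368-47533559, plus strand) they were 20.02, 25.1 and 23.4 CPM with DMSO and 15.4, 16.5 and 12.4 CPM with ponatinib. All ponatinib libraries were lower, although DMSO replicate 1 was the lowest DMSO library in each line. The log2 fold change was -0.52 in the human line (SE 0.12, adjusted p = 0.00343 in edgeR) and -0.63 in 4T1 (SE 0.13, adjusted p = 0.00082). The difference between lines was -0.18 (95% interval -0.57 to 0.22) and did not pass the test (adjusted p = 0.493 for the interaction in edgeR).

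*SOCS4* starts beside *WDHD1*, a DNA replication factor read from the opposite strand, and this neighbour fell in both lines as well. *WDHD1* was at 36.1, 44.2 and 44.6 CPM with DMSO and 17.0, 18.99 and 19.99 CPM with ponatinib in the human line, a log2 fold change of -1.16 (SE 0.11, adjusted p = 5.50e-06 in edgeR). *Wdhd1* was at 25.5, 30.6 and 27.5 CPM with DMSO and 17.8, 16.4 and 15.8 CPM with ponatinib in 4T1, a log2 fold change of -0.74 (SE 0.11, adjusted p = 4.27e-05 in edgeR). The gene on the other side, *MAPK1IP1L*, went from 161 ± 8.41 to 108 ± 4.34 CPM in the human line (SD, n = 3) and *Mapk1ip1l* from 79.1 ± 6.48 to 52.6 ± 6.87 CPM in 4T1 (SD, n = 3), log2 fold changes of -0.58 and -0.59, both called. Among all genes, 26.8% were lower in the human line and 29.4% in 4T1. Whether *SOCS4* and its neighbours share control was not tested. In the annotations 124 bases lie between *WDHD1* and *SOCS4* in human and 24 in mouse. The window around both starts is shown for human (chr14:55026986-55027285, GRCh38.p14, plus strand) and mouse (chr14:47514118-47514417, GRCm39, plus strand), with the bases between the genes in capitals.
SOCS4 and WDHD1, human: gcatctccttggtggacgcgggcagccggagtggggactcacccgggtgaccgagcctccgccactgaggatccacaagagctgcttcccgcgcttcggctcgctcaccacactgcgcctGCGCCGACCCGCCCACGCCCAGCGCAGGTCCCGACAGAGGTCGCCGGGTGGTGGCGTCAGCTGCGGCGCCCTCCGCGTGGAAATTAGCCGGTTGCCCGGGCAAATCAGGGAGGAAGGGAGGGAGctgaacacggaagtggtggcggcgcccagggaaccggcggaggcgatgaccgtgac
Socs4 and Wdhd1, mouse: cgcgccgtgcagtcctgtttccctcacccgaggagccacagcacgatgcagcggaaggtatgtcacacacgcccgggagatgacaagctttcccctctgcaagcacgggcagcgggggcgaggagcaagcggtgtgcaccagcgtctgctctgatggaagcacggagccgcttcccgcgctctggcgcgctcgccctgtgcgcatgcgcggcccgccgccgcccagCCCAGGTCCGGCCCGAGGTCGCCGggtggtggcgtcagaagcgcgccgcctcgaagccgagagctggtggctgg

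*SOCS6*, a member that binds the insulin receptor and KIT, moved in opposite directions in the lines. In MDA-MB-231 (ENSG00000170677, hg38 chr18:70289045-70330199, plus strand) it was at 2.98, 1.81 and 4.15 CPM with DMSO and 5.30, 6.24 and 6.90 CPM with ponatinib. In 4T1 (ENSMUSG00000056153, GRCm39 chr18:88683348-88945635, minus strand) it was at 194, 205 and 207 CPM with DMSO and 111, 115 and 114 CPM with ponatinib. It rose in the human line without overlap (log2 fold change 1.04, SE 0.25, adjusted p = 0.00451 in edgeR) and fell in 4T1 (log2 fold change -0.83, SE 0.07, adjusted p = 1.50e-07). The difference of -1.95 between the responses (SE 0.22, adjusted p = 7.12e-07 for the interaction in edgeR) was the widest of the 7 members compared. Per length, the human gene was near the low end of the analysed members with DMSO and the mouse gene came next after *Socs3*.

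*SOCS2*, a target of STAT5 that limits growth hormone signaling, had the largest fold change of the members in 4T1. In 4T1 (ENSMUSG00000020027, GRCm39 chr10:95219523-95253929, minus strand) it was at 24.8, 30.4 and 29.1 CPM with DMSO and 14.1, 13.7 and 12.8 CPM with ponatinib. In MDA-MB-231 (ENSG00000120833, hg38 chr12:93569814-93583487, plus strand) it was at 17.0, 19.04 and 18.7 CPM with DMSO and 14.4, 15.2 and 16.5 CPM with ponatinib. The groups did not overlap in either line, but the gap in the human line was narrow. The log2 fold change was -1.05 in 4T1 (SE 0.11, adjusted p = 2.06e-06 in edgeR) and -0.25 in the human line (SE 0.11, adjusted p = 0.0729), which was not called. With the replicate number as a block it passed in the human line at the same log2 fold change of -0.25 (adjusted p = 0.0215 in edgeR), as it did without DMSO replicate 1 (-0.31, adjusted p = 0.0444). The responses of the lines differed by -0.88 (SE 0.16, adjusted p = 0.000177 for the interaction in edgeR). *SOCS2-AS1*, on the opposite strand over the start of the human gene, was at 1.86 ± 0.34 CPM with DMSO and 1.82 ± 0.662 CPM under ponatinib (SD, n = 3). The strand setting of the counting is not given in the sources used here, so reads from the overlap cannot be assigned to either gene.

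*CISH*, the founding member and a STAT5 target, had the lowest level per length of the analysed members in both lines, though it overlapped with *SOCS6* in the human DMSO libraries. In MDA-MB-231 (ENSG00000114737, hg38 chr3:50606489-50611774, minus strand) it had 28, 25 and 34 counts with DMSO and 24, 4 and 22 counts with ponatinib, or 1.86, 1.62 and 2.14 against 1.51, 0.255 and 1.20 CPM. In 4T1 (ENSMUSG00000032578, GRCm39 chr9:107173225-107179983, plus strand) it had 12, 9 and 12 counts with DMSO and 10, 13 and 10 with ponatinib. The human groups did not overlap and ponatinib replicate 2 was the lowest, whereas the 4T1 groups overlapped. The log2 fold change of -0.90 in the human line (95% interval -1.85 to 0.05, adjusted p = 0.101 in edgeR) did not pass, nor did that of -0.09 in 4T1 (95% interval -0.91 to 0.73, adjusted p = 0.859), where so few counts gave a wide interval. In the human line it passed with the replicate number as a block (-0.98, adjusted p = 0.0271 in edgeR), without a filter on low counts (-0.93, adjusted p = 0.0246) and without ponatinib replicate 1 (-1.31, adjusted p = 0.0255). *MAPKAPK3*, which overlaps the start of human *CISH* on the other strand, was at 107 ± 8.08 CPM with DMSO and 88.7 ± 2.12 CPM under ponatinib (SD, n = 3). With the strand setting not given, reads from that overlap cannot be assigned to either gene, and *MAPKAPK3* had the far higher level. The line difference of 0.74 for *CISH* had a 95% interval of -0.54 to 2.02.

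*SOCS1*, a potent inhibitor of interferon signaling, fell in 4T1 and was variable in the human line. In 4T1 (ENSMUSG00000038037, GRCm39 chr16:10600104-10603875, minus strand) it was at 15.5, 11.8 and 12.2 CPM with DMSO and 9.36, 7.18 and 7.81 CPM with ponatinib. In MDA-MB-231 (ENSG00000185338, hg38 chr16:11254417-11256204, minus strand) it was at 3.52, 2.72 and 4.09 CPM with DMSO and 6.75, 3.57 and 2.68 CPM with ponatinib. The 4T1 groups did not overlap, and in the human line only ponatinib replicate 1 was above all DMSO libraries. The log2 fold change was -0.70 in 4T1 (SE 0.15, adjusted p = 0.000918 in edgeR) and 0.32 in the human line (95% interval -0.37 to 1.01, adjusted p = 0.410), and the latter became -0.15 without ponatinib replicate 1. The responses differed by -1.09 (SE 0.35, adjusted p = 0.0167 for the interaction in edgeR). That call was lost without human ponatinib replicate 1 (-0.62, adjusted p = 0.0889), without 4T1 DMSO replicate 1 (-0.90, adjusted p = 0.0549) and without 4T1 ponatinib replicate 2 (-0.95, adjusted p = 0.0514). *RMI2*, on the other strand across human *SOCS1*, fell from 17.4 ± 0.735 to 12.1 ± 0.797 CPM (SD, n = 3). Without the strand setting, reads over human *SOCS1* cannot be assigned to either gene, and *RMI2* had the higher level.

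*SOCS5*, an inhibitor linked to IL-4 and EGF receptor signaling, fell in 4T1 and was not called in the human line. In 4T1 (ENSMUSG00000037104, GRCm39 chr17:87414674-87445267, plus strand) it was at 82.5, 87.5 and 74.9 CPM with DMSO and 54.0, 57.4 and 49.4 CPM with ponatinib. In MDA-MB-231 (ENSG00000171150, hg38 chr2:46698952-46780245, plus strand) it was at 13.2, 16.1 and 14.7 CPM with DMSO and 14.0, 17.7 and 17.1 CPM with ponatinib. The 4T1 groups were apart and the human groups overlapped. The log2 fold change was -0.61 in 4T1 (SE 0.09, adjusted p = 3.07e-05 in edgeR) and 0.15 in the human line (95% interval -0.13 to 0.44, adjusted p = 0.335). Their difference was -0.83 (SE 0.15, adjusted p = 0.000202 for the interaction in edgeR).

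*Socs7*, which binds insulin receptor substrate and the adaptor vinexin, was analysed in 4T1 alone. It (ENSMUSG00000038485, GRCm39 chr11:97253032-97289368, plus strand) was at 89.0, 102 and 91.1 CPM with DMSO and 65.1, 55.5 and 50.3 CPM with ponatinib. The groups did not overlap and the gene fell with a log2 fold change of -0.72 (SE 0.10, adjusted p = 1.72e-05 in edgeR).

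**Figure D2:**
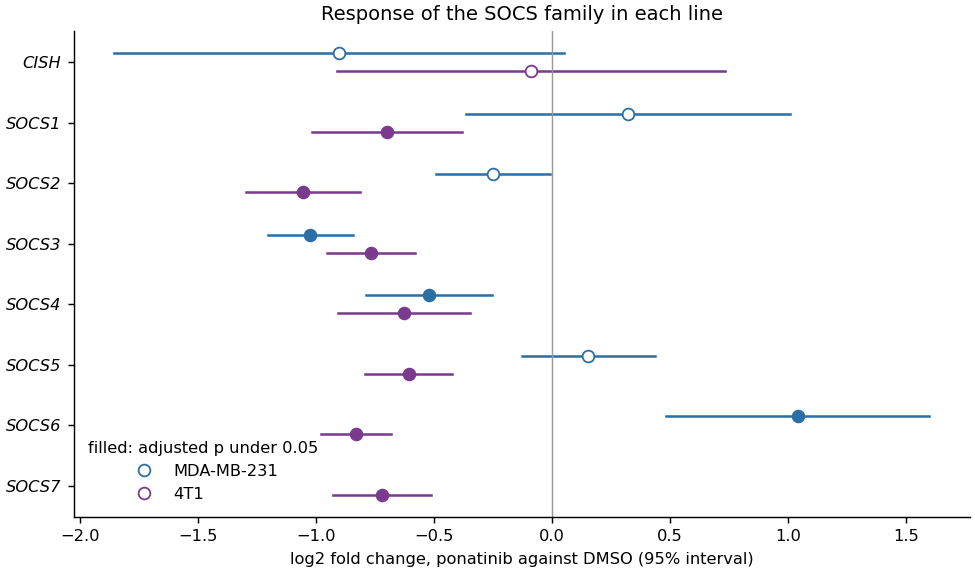
Log2 fold change of each SOCS family gene with ponatinib against DMSO, with its 95% interval, in MDA-MB-231 (blue) and 4T1 (purple), where a filled point has an adjusted p under 0.05. *SOCS3* and *SOCS4* lie below 0 in both lines, and *SOCS6* lies at 1.04 (MDA-MB-231) and -0.83 (4T1).

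The responses of 4 of the 7 members compared between lines differed at an adjusted p under 0.05 for the interaction, namely *SOCS1*, *SOCS2*, *SOCS5* and *SOCS6*, where 41.9% of 12488 genes with a shared symbol did. All of these 4 were more negative in 4T1. For *CISH*, *SOCS3* and *SOCS4* the difference did not pass, which does not show that the lines responded alike.

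Divided by the exon length of the gene, *SOCS3* had the highest level of the analysed members in both lines and both treatments. Human *SOCS7* was not analysed, so the orders, shares and sums below cover 7 members in the human line and 8 in 4T1. These levels, in CPM per kilobase of exon, use exon lengths from GENCODE v44 and vM39, not from the annotation used for counting. The length is that of all annotated exons of a gene merged, not of an expressed transcript. It was 15258 bases for mouse *Socs2* and 6477 for human *SOCS2*, so the orders and shares below depend on the annotation. In the human line with DMSO, *SOCS3* was at 20.4 ± 0.618 (SD, n = 3), followed by *SOCS4* at 4.44, *SOCS2* at 2.82, *SOCS5* at 1.95, *SOCS1* at 1.92, *SOCS6* at 0.511 and *CISH* at 0.370 CPM per kilobase. *SOCS5* and *SOCS1* overlapped between libraries, and so did *SOCS6* and *CISH*. With ponatinib, *SOCS3* was at 10.0 ± 0.203 (SD, n = 3) and *SOCS6* at 1.05 CPM per kilobase, above *CISH* at 0.196 without overlap. *SOCS4*, *SOCS1*, *SOCS2* and *SOCS5* then lay between 2.17 and 3.10 CPM per kilobase, each overlapping with the next.

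In 4T1 with DMSO the order per length was *Socs3* at 23.5 ± 1.51 (SD, n = 3), *Socs6* at 17.0, *Socs7* at 11.996, *Socs5* at 11.0, *Socs1* at 3.90, *Socs4* at 3.31, *Socs2* at 1.84 and *Cish* at 0.0954 CPM per kilobase. The libraries of *Socs7* and *Socs5* overlapped, as did those of *Socs1* and *Socs4*. Before division by length, *Socs2* with DMSO was at 28.1 CPM, above *Socs4* at 22.8 and *Socs1* at 13.2 CPM. The order was the same with ponatinib, with *Socs3* at 13.8 ± 1.21 and *Socs6* at 9.54 ± 0.204 CPM per kilobase (SD, n = 3). The share of *SOCS3* in the summed level per length of the measured members went from 62.9% with DMSO to 47.0% with ponatinib in the human line. In 4T1 it was 32.4% with DMSO and 31.9% with ponatinib. *SOCS6* made up 1.58% and 4.94% of the sum in the human line, and 23.4% and 22.0% in 4T1. The CPM of all measured members added up to 120 to 135 with DMSO and 90.7 to 93.2 with ponatinib in the human line. In 4T1 the sums were 514 to 539 and 298 to 322 CPM.

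**Figure D3:**
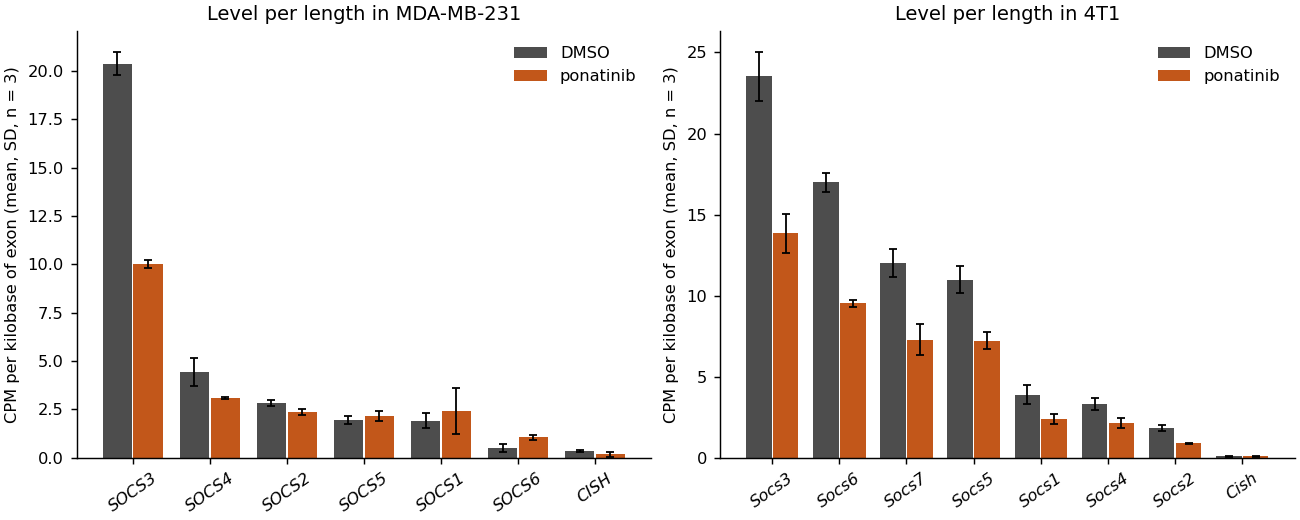
Mean level of each member per kilobase of exon (CPM per kilobase, error bars SD, n = 3) with DMSO (grey) and ponatinib (orange), in order of the DMSO level. Among the members shown, which leave out human *SOCS7*, *SOCS3* leads in both lines, at 20.4 CPM per kilobase (MDA-MB-231) and 23.5 (4T1). *Socs6* comes next in 4T1, while *SOCS6* is near the bottom in MDA-MB-231.

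None of the 4 JAK kinases was lower in either line, where 26.8% (human line) and 29.4% (4T1) of all genes were. Higher were 27.2% and 29.5% of all genes. *JAK3*, which signals from the common gamma chain, rose from 0.684 ± 0.306 to 2.09 ± 0.679 CPM in the human line (SD, n = 3, log2 fold change 1.59, adjusted p = 0.00427 in edgeR). *Jak3* rose from 20.7 ± 3.65 to 44.6 ± 1.42 CPM in 4T1 (SD, n = 3, log2 fold change 1.11, adjusted p = 1.42e-06 in edgeR). *TYK2* rose in both lines, by 0.41 and 0.74 on the log2 scale, and *Jak2* rose by 0.39 in 4T1, while *JAK2* was at 2.67 and 2.52 CPM in the human line. *JAK1* was not called, at 83.6 and 87.8 CPM in the human line and 131 and 147 CPM in 4T1, but *Jak1* passed in 4T1 with the replicate block (0.16, adjusted p = 0.0318 in edgeR), at total counts (0.28, adjusted p = 0.00584), with at least 10 counts in every library (0.18, adjusted p = 0.0493) and without ponatinib replicate 3 (0.22, adjusted p = 0.0382).

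Of the 7 STAT factors, 6 were tested in each line, with 1 lower and 3 higher in the human line and 3 higher in 4T1. Among all genes 26.8% were lower and 27.2% higher in the human line, and 29.4% and 29.5% in 4T1. *STAT2*, a component of the interferon-activated factor ISGF3, rose from 38.2 ± 1.31 to 132 ± 6.75 CPM in the human line and *Stat2* from 6.38 ± 0.336 to 11.7 ± 0.272 CPM in 4T1 (SD, n = 3), log2 fold changes of 1.79 and 0.88. *STAT5A*, activated by prolactin and growth hormone, rose by 0.71 in the human line and *Stat5a* by 1.81 in 4T1 on the log2 scale, the latter from 6.73 to 23.7 CPM. *STAT3*, the main factor behind gp130 cytokines, was at 159 and 152 CPM in the human line and 90.3 and 89.9 CPM in 4T1 and was not called. *STAT5B* was lower (-0.23, adjusted p = 0.0461 in edgeR) and *STAT6* higher (0.21, adjusted p = 0.0209) in the human line. The call of *STAT5B* was lost under 9 of 12 alternatives, among them the removal of DMSO replicate 1 or 3 or any ponatinib library, and that of *STAT6* under 5, among them the removal of DMSO replicate 2 or 3 or ponatinib replicate 3.

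Of 14 ligands tested in the human line, 8 were lower and 3 higher, with a median log2 fold change of -0.76, and of 11 tested in 4T1, 8 were lower and 1 higher, with a median of -2.15. The lower share was 57.1% in the human line, against 26.8% of all genes, and 72.7% in 4T1, against 29.4%. The higher share was 21.4% against 27.2%, and 9.09% against 29.5%. *CSF3*, the granulocyte colony-stimulating factor, fell from 30.7 ± 1.52 to 0.749 ± 0.28 CPM (SD, n = 3), and *IL11*, a gp130 cytokine, from 76.7 ± 2.59 to 5.33 ± 1.06 CPM in the human line (SD, n = 3), log2 fold changes of -5.36 and -3.85. The gp130 cytokine *CTF1* rose by 0.75 and *IL15* by 0.67 on the log2 scale. In 4T1 *Il23a* fell from 9.10 ± 1.94 to 0.400 ± 0.0703 CPM and *Csf2* from 76.2 ± 5.28 to 9.06 ± 1.16 CPM (SD, n = 3), log2 fold changes of -4.48 and -3.07.

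Among cytokine receptors, 7 were lower and 9 higher of 23 tested in the human line, and 2 were lower and 9 higher of 18 in 4T1. Lower receptors made up 30.4% and 11.1%, against 26.8% and 29.4% of all genes. Higher ones made up 39.1% and 50%, against 27.2% and 29.5%. The decoy receptor *IL13RA2* (log2 fold change -0.78) and *IL6R* (-0.67) fell in the human line, and the erythropoietin receptor *EPOR* rose from 9.50 to 26.1 CPM (1.46) and *IL11RA* from 5.50 to 13.9 CPM (1.34). In 4T1 *Crlf2* (-0.64) and *Ifnar1* (-0.59) fell, while *Il22ra1* rose from 24.0 to 59.5 CPM (1.31) and *Il15ra* from 2.94 to 7.30 CPM (1.31).

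Negative regulators outside the family were lower in 5 and higher in 1 of 12 tested in the human line, and lower in 4 and higher in 3 of 12 in 4T1. For all genes the shares were 26.8% lower and 27.2% higher in the human line, and 29.4% and 29.5% in 4T1. The adaptor *SH2B3*, which restrains JAK2, fell from 127 ± 9.48 to 62.8 ± 0.157 CPM in the human line (SD, n = 3, log2 fold change -1.01), and the phosphatase *PTPN11* fell by 0.61 on the log2 scale. In 4T1 the phosphatase *Dusp3* (-0.58) and the ubiquitin ligase *Cbl* (-0.43) fell and the phosphatase *Ptpn1* rose (0.31). *PIAS3*, an inhibitor of STAT3, rose in both lines, by 0.63 in the human line and 0.59 in 4T1. Over these JAK-STAT lists together, without the SOCS members, 21 genes were lower and 18 higher of 59 tested in the human line, with a median of 0.0049, and 14 were lower and 19 higher of 51 in 4T1, with a median of 0.13. In percent, 35.6% were lower and 30.5% higher in the human line, and 27.5% and 37.3% in 4T1, beside the shares of all genes above.

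Of known STAT target genes, 6 were lower (27.3%) and 8 higher (36.4%) of 22 in the human line, where 26.8% and 27.2% of all genes were. In 4T1 7 were lower and 7 higher of 20, or 35% each, against 29.4% and 29.5%. The cell cycle genes *CDKN1A* and *CCND1* fell in the human line (log2 fold changes -2.67 and -1.98), and the interferon-induced GTPase *GBP2* rose from 5.58 to 30.8 CPM (2.46) and *FOS* from 5.86 to 30.4 CPM (2.38). In 4T1 the chemokine *Cxcl10* (-1.78) and *Myc* (-0.89) fell, and the peptide transporter *Tap1* (1.72) and the adhesion gene *Icam1* (1.18) rose.

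No partner of the SOCS box was higher in either line, where 27.2% (human line) and 29.5% (4T1) of all genes were. Lower were 26.8% and 29.4% of all genes. Human cells had 6 of 10 ligase partners fall, with elongin C (*ELOC*) going from 91.9 ± 2.59 to 63.9 ± 4.82 CPM (SD, n = 3, log2 fold change -0.52) and *ARIH2*, a ligase that works with cullin 5, falling by 0.42. In 4T1 5 of 10 fell, among them the neddylation enzyme *Ube2f* (-0.39) and *Arih2* (-0.33). Of the other proteins with a SOCS box, 4 were lower and 8 higher of 16 in the human line, and 4 were lower and 6 higher of 14 in 4T1. *SPSB1*, which targets inducible nitric oxide synthase, fell in both, by 0.69 in the human line and 1.44 in 4T1 on the log2 scale. *ASB13* rose in both, by 0.73 and 0.49. *ASB1* fell by 0.66 and *ASB9* rose by 1.16 in the human line, and *Wsb1* fell by 0.73 and *Asb3* rose by 0.57 in 4T1. Proteins known to be bound by SOCS family members were lower in 4 and higher in 4 of 13 in the human line, and lower in 4 and higher in 2 of 13 in 4T1. In the human line that was 30.8% each, close to the shares of all genes, and in 4T1 30.8% and 15.4%. The receptor *MET* (-0.64) and the adaptor *GRB2* (-0.63) fell and the receptors *ERBB2* (0.81) and *INSR* (0.59) rose in the human line. In 4T1 *Tirap* (-0.44) and *Rela* (-0.31) fell and *Irs1* (0.75) and *Sorbs3* (0.31) rose.

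**Figure D4:**
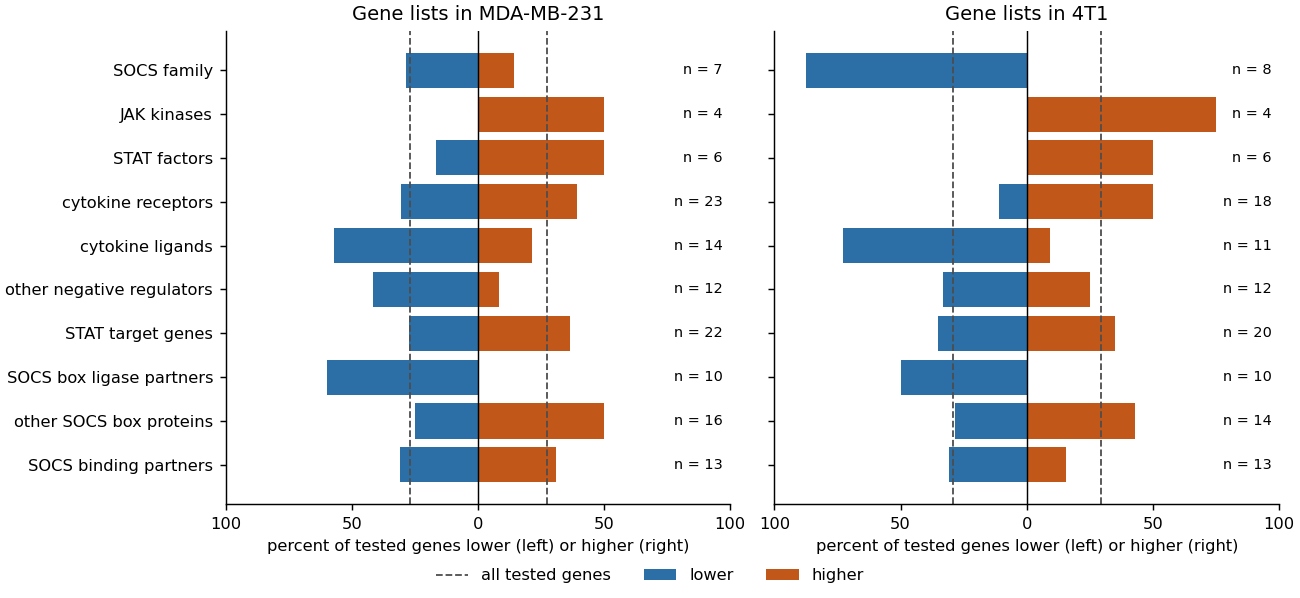
Percent of the tested genes of each list that were lower (blue, to the left) or higher (orange, to the right) with ponatinib at an adjusted p under 0.05, with dashed lines at the share of all tested genes and the number tested at the right. In 4T1 the SOCS family lies far to the left, at 7 of 8 genes lower, and the JAK kinases lie to the right, at 3 of 4 higher.

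Some neighbours of the other members were also called, in either direction, and only those called are named here. Others were tested and not called in each line. Of all genes, 26.8% were lower and 27.2% higher in the human line, and 29.4% and 29.5% in 4T1. In 4T1 *Gpr179* beside *Socs7* fell by 1.06 and *Rttn* beside *Socs6* by 0.70 on the log2 scale, and *Mcfd2* beside *Socs5* fell by 0.51, as *MCFD2* did in the human line by 0.63. *CRADD* beside *SOCS2* fell by 0.91 in the human line, and *MRPL42*, on the other side, fell by 0.38, a call lost at total counts (-0.29, adjusted p = 0.0511 in edgeR). *Mrpl42* rose by 0.54 in 4T1. *DOCK3* beside *CISH* rose by 1.12 in the human line. *Hemk1* beside *Cish* rose by 0.33 and *Tha1* beside *Socs3* by 0.84 in 4T1. *HEMK1* in the human line was higher by 0.33, a call lost under 6 of 12 alternatives, among them the removal of DMSO replicate 2 or 3 or ponatinib replicate 1 or 2. *Pgs1* beside *Socs3* was lower in 4T1 (-0.19), a call lost under 8 of 12, among them the removal of DMSO replicate 1 or 2 or any ponatinib library.

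Genes whose level followed each member closely across the 12 libraries were sought among 8157 genes with a shared symbol. Since the libraries belong to 2 lines and 2 treatments, these correlations of log2 CPM reflect the means of 4 groups and are descriptions only. Among the 2 closest to *SOCS3* was *TBL2* (Pearson's r = 0.993) and among those to *SOCS6* was *BAIAP2L1* (0.997), and for *SOCS5* they were *SLC38A2* and *PLEKHA1* (both 0.998). For *SOCS2* they were *SYNJ2* (0.983) and *STT3A* (0.973), for *SOCS4* *NUP98* (0.967) and *YWHAZ* (0.966), and *SOCS1* had *FOXA2* (0.955) among its 2 closest. *CISH*, with few counts, had the lowest, at 0.885 for *TTI1* and 0.853 for *PPIB*.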

How the data were processed

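RNA-seq counts were taken as the authors deposited them, as raw whole-number counts per gene and library without normalization. According to the methods and the submitters' processing notes, HISAT2 alignments to hg38 (human) or GRCm39 (mouse) were counted by HTSeq. Their versions, the annotation and the strand setting are not given in the sources used here. Identifiers were matched to GENCODE v44 (81.9% of the human identifiers, 99.3% of the counts) and vM39 (91.1% of the mouse identifiers, 99.8% of the counts).

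Ponatinib and DMSO were compared in each line apart by the quasi-likelihood test of edgeR 4.0.16 in R 4.3.3, after filterByExpr and TMM scaling, with Benjamini-Hochberg adjustment over all genes tested, and between lines as an interaction over 16822 shared symbols. The interaction fit filtered and scaled the 12 libraries together, so its differences need not equal those between the separate fits. Alternatives were DESeq2 1.42.0, its size factors, total counts, other filters, a replicate block and leaving out each library. Same-numbered ponatinib and DMSO libraries deviated together (correlations of 0.345, 0.111 and 0.133 for MDA-MB-231, then 0.213, 0.119 and 0.115 for 4T1), and every one was over 0.1, so the block treats the number as a pair. On simulated counts, 79.6% of genes changed by 0.75 on the log2 scale were recovered in MDA-MB-231 among 14553 genes tested, 88% in 4T1 among 13256 and 67% for the difference between lines among 12439. False calls numbered 14, 7 and 7. Every simulated gene had the same fixed dispersion, not estimated from these data, with no pairing and no shift of library 1. These rates are therefore not the power of the real libraries. Replicates differed by more than sampling noise.

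The members, lists and markers were chosen with earlier results of these data known. Genes named were all members, JAKs and STATs; per further list and line, the 2 largest falls and rises at an adjusted p under 0.05, 5 CPM or more as the larger group mean, and no overlap; the genes next to or overlapping a member, of which those called and the overlapping ones are named; and the 2 genes most correlated with each member. CPM was computed here from the counts. Values of some genes that meet this rule are not reported here. The likeness used log2 of CPM plus 0.5.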

Additional observations from a re-analysis of the deposited data

Results flagged for a closer look

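The response to ponatinib differed between the lines for 4 of 7 SOCS family genes in the interaction test of edgeR, as it did for 41.9% of 12488 genes. In that joint fit, scaled over genes with a shared symbol, the log2 fold change in 4T1 minus that in MDA-MB-231 was -1.09 for *SOCS1* (adjusted p = 0.0167 in edgeR), -0.88 for *SOCS2* (adjusted p = 0.000177), -0.83 for *SOCS5* (adjusted p = 0.000202) and -1.95 for *SOCS6* (adjusted p = 7.12e-07). The call of *SOCS1* was lost without MDA-MB-231 ponatinib replicate 1 (-0.62, adjusted p = 0.0889), without 4T1 DMSO replicate 1 (-0.90, adjusted p = 0.0549) or without 4T1 ponatinib replicate 2 (-0.95, adjusted p = 0.0514). The species, the line and the separately annotated gene models differ together here and cannot be told apart. Groups of 3 libraries were not tested for outlying libraries.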

How the results depend on the processing

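Of the 15 fold changes of members, 11 kept their direction and side of the threshold under every alternative run, none lost a call, 2 gained one and 2 changed sign. With the replicate block 4 members were lower in MDA-MB-231 instead of 2, the additions being *CISH* and *SOCS2*. Among the other named genes it also added *Jak1* in 4T1, and it changed no other call reported here. The 7 lower members in 4T1 and the 1 higher member in MDA-MB-231 were counted under every alternative. Total counts turned *Cish* in 4T1 (0.028), *JAK2* (0.013), *STAT3* (0.034) and *SOCS2-AS1* (0.056) in MDA-MB-231 and *Stat3* in 4T1 (0.11), and at least 10 counts in every library turned *Stat3* (0.011), all on the log2 scale and none called. Leaving out each library gave -0.15 to 0.58 for *SOCS1*, -0.017 to 0.11 for *JAK1*, -0.41 to 0.14 for *JAK2* and -0.36 to 0.17 for *SOCS2-AS1* in MDA-MB-231, and -0.081 to 0.046 for *Stat3* and -0.029 to 0.12 for *Stat5b* in 4T1. Of 88 other fold changes under the naming rule, not all reported here, 73 were the same throughout, 6 lost a call, 3 gained one and 6 changed sign. Of 7 line differences 6 were the same and that of *SOCS1* was lost without some libraries. A filter of 10 counts in every library left *CISH*, *Cish*, *JAK3*, *CSF3* and *Il23a* without a value. Low counts limit *CISH* in both lines.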
